A study of Mus musculus with 8 samples.

Results

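Intraflagellar transport (IFT) and BBSome genes were examined as a set of 32 genes in testes with and without Tex19.1. The set holds 14 genes of the IFT-B complex, 6 of the IFT-A complex, 7 BBSome subunits, 2 chaperonin-like BBS genes and 3 ciliary small GTPases. Every probe whose annotated symbol, current or older, is that of a member was taken, which gave 61 of the 45281 probes on the array for 30 of the 32 genes. No probe listed in the annotation carried the symbols of Arl6, the GTPase that brings the BBSome to membranes, or Arl13b, the GTPase that activates Arl3. Of the 61 probes, 42 were detected in at least 1 array (detection p under 0.01) and were kept among 19089 kept probes of the series, and they represent 26 members. The other 19 were not detected in any array, and they include every probe of Ift46, Ift57 and Hspb11 of IFT-B and of Wdr35 of IFT-A.

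The animals were male C57BL/6 mice at 16 dpp, 4 of them Tex19.1-/- and 4 of them Tex19.1+/- controls, so the controls carry a mutant allele as well. Total RNA from whole testis, with all its germ and somatic cells mixed, was hybridised to Illumina Beadchips (Mouse WG-6 v2.0), 1 per animal. The mutation had been crossed onto C57BL/6 by repeated backcrossing, which the paper describes as a way to reduce genetic variation. Sequence left from the earlier mixed background, also near Tex19.1, was not examined here. The comparison was between littermates, and the labels describe the 4 animals of a genotype as biological replicates. In a bulk sample of this kind, fewer cells of a type and less RNA per cell cannot be told apart.

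The mean signal of an array was 90.8 to 159 in controls and 79.0 to 126 in Tex19.1-/- animals, with 13720 to 15876 detected probes over all arrays, and arrays of the same genotype correlated at 0.967 or above in controls and 0.978 or above in Tex19.1-/- animals. The Tex19.1 probe was detected in 4 of 4 controls, at 7.88 to 8.36 on the normalised log2 scale, and in 0 of 4 Tex19.1-/- animals, at 5.36 to 5.72. Tissue markers were in place for somatic cells, with 10 of 14 Sertoli cell genes kept, and for spermatocytes, with 15 of 18 mid to late pachytene genes and 11 of 18 early prophase genes kept. The early prophase genes without a detected probe included Sycp1, Sycp3 and Dmc1, which spermatocytes are known to express. Spermatid genes were mostly below detection, with 4 of 14 kept and Prm1, Tnp1, Tnp2 and Acrv1 not detected in any array.

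Cilia and sperm flagella are built by IFT, in which trains of protein complexes run along the axoneme beneath the membrane. IFT-B trains, moved by kinesin, carry tubulin and other parts to the tip, and IFT-A, with a dynein motor, serves the return journey and the entry of membrane proteins. The BBSome is a coat-like adaptor that rides the trains and moves membrane proteins out of the cilium. In the testis these genes are best known for the sperm flagellum, which round spermatids assemble after meiosis, and male mice that lack certain IFT or BBSome subunits have missing or malformed flagella.

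RFX transcription factors, known regulators of ciliary genes, bind an inverted repeat called the X-box. The promoters of members are shown for this reason, with the letters of the RefSeq table of GRCm38.p6, which holds 250 bases before and 50 after the start of 29 of the 32 genes (Ift80, Ift81 and Ift122 were not matched). The pattern GTNNCCNNGGNNAC, which reads the same on both strands, was found in 6 of the 29 members (20.7%), in Ift22, Ift57, Wdr19, Bbs1, Bbs4 and Bbs7, and in 2.16% of all 27025 genes in the table. The matches that lie before the start are printed 5′ to 3′ on the strand of the gene, with the match in capitals. The coordinates are those of the printed windows around the matches. Ift22 holds it at 2 places, in chr5:136908079-136908108 and chr5:136908109-136908138 (plus strand). Ift57 holds it in chr16:49699199-49699228 (plus), Wdr19 in chr5:65199654-65199683 (plus) and Bbs7 in chr3:36613489-36613518 (minus).
Ift22, upstream match: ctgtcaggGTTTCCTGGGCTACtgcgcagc
Ift22, match nearer the start: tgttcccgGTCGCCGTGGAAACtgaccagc
Ift57: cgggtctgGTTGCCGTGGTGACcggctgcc
Wdr19: tttgcacgGTCTCCTGGGTGACgagaacgc
Bbs7: gcgccccgGTTGCCTTGGAAACcggccagc

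Ift172, Arl3 and Ift140, the members with the largest changes, do not hold the full pattern in these windows, and Ift122 has no window. A search was also made for the hexamer GTTGCC on either strand, which is 1 form of the pattern's left arm GTNNCC and overlaps the full pattern in Ift57, Bbs1 and Bbs7, while Ift22, Wdr19 and Bbs4 have other letters in the arm. It was present in 11 of the 29 members (37.9%) and in 14.1% of all genes. Ift140 and Ift172 hold it, in the windows chr17:25015965-25015994 (plus) and chr5:31291097-31291126 (minus), and Arl3 does not. Counted from the start, its first base is at -109 in Ift140 and at 1 in Ift172, so only that of Ift140 lies upstream. The hexamer is in capitals in the windows of these 2 genes, read on the strand of the gene, so that capitals GGCAAC mark it on the opposite strand.
Ift140: gcgtgttgtgacGGCAACctcgcgcccttg
Ift172: tgtcgcactcacGTTGCCtgtgcgtcagcg

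Of the 6 members with the full pattern, Ift22, Bbs4 and Bbs7 had a probe detected in all 8 arrays, with log2 changes (Tex19.1-/- minus Tex19.1+/-) of -0.41, -0.01 and -0.52. With Wdr19 (0.08) and Bbs1 (-0.07), both near the limit of detection, the 5 kept members with the pattern had a median of -0.07. That median is the value of Bbs1 itself, whereas the middle value of Ift22, Bbs4 and Bbs7 was -0.41. The 18 kept members with a promoter and without the pattern had a median of -0.31. Its difference from either value was not tested. A match of letters is a description of the sequence and not a binding site.

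Most member probes lay lower in the Tex19.1-/- testes. Of the 42 kept probes 38 had a log2 change (Tex19.1-/- minus Tex19.1+/-) below 0, or 34 when arrays were scaled by their medians, with a median of -0.32, against a median of 0.024 over all kept probes, of which 43.9% were below 0. At an adjusted p no higher than 0.01 from limma, Benjamini-Hochberg over all kept probes, 5 member probes (11.9%) fell and 0 rose, beside 1.63% of all probes lower and 0.141% higher. These 5 probes belong to 3 genes, Ift172, Ift140 and Arl3. At an adjusted p no higher than 0.05, 9 member probes were lower, beside 2.84% of all probes. At an unadjusted p under 0.05 27 were lower (64.3%) and 0 higher, beside 7.93% and 5.87% of all probes. Every Tex19.1-/- animal lay below every control at 20 of the 42 probes and above every control at 0, beside 6.06% and 4.18% of all probes. Of the kept probes 4, for Ift74, Ttc21b, Bbs1 and Bbs12, were detected in no Tex19.1-/- array and so passed the filter through the controls, while 1 probe, for Wdr19, passed through a single Tex19.1-/- array. The 32 probes detected in all 8 arrays had a median of -0.34, with 30 of them below 0, against 0.048 for the 11565 probes of the series detected in all arrays.

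With the replicate number as a block, 9 member probes were called lower, beside 2.46% of all probes. The labels do not say what the replicate numbers mark, so all values with the block rest on an uncertain pairing. The 4 that joined were for Ift88, Ift122, Ift27 and the remaining Ift172 probe. With median scaling in place of quantile normalisation no member probe was called, while 7 were lower at an unadjusted p under 0.05, beside 2.66% of all probes, and with signals under 1 set to 1 none was called either.

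**Figure D1:**
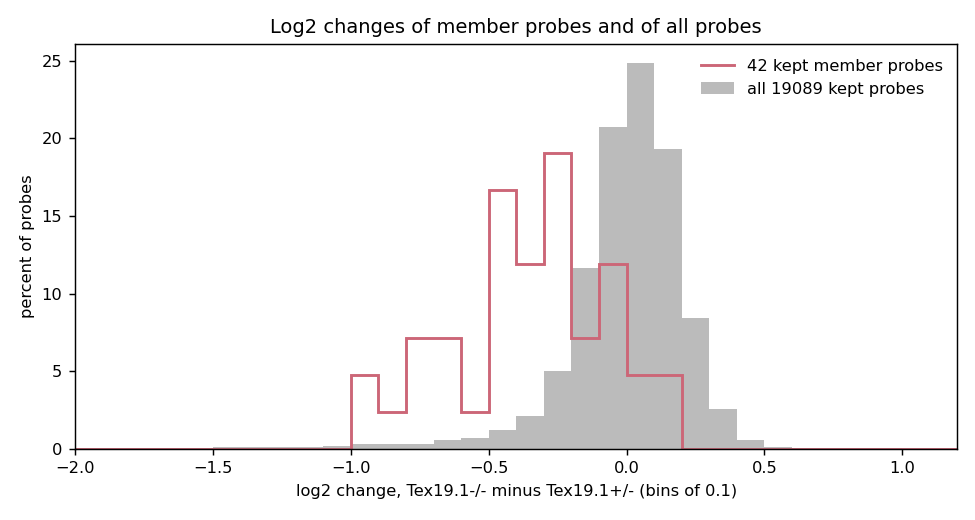
Percent of probes (vertical axis) in bins of 0.1 of the log2 change, Tex19.1-/- minus Tex19.1+/- (horizontal axis), for all 19089 kept probes (grey bars) and the 42 kept member probes (red outline). The member probes lie between -0.98 and 0.14 with a median of -0.32, to the left of the bulk of all probes.

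In IFT-B the change was led by Ift172, the largest subunit, which sits at the edge of the train and is needed for turnaround at the ciliary tip. Its brightest probe, ILMN_2611450, read 9.74, 9.92, 9.91 and 10.21 (log2 signal) in control animals 1 to 4 and 9.09, 8.91, 9.06 and 8.81 in Tex19.1-/- animals 1 to 4. The genotypes did not overlap, with the lowest control well above the highest Tex19.1-/- animal. The decrease was 1.97-fold (log2 change -0.98, standard error 0.12, 95% interval -1.23 to -0.73, adjusted p = 5.1e-04 from limma).

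Another Ift172 probe, ILMN_2623451, read 7.46, 7.61, 7.43 and 7.84 in controls and 6.93, 6.93, 6.78 and 6.57 in Tex19.1-/- animals, again without overlap. Its log2 change was -0.78 (standard error 0.12, 1.72-fold lower, adjusted p = 0.0025). The remaining probe, ILMN_2829646, read 7.59, 8.07, 7.72 and 8.41 against 7.18, 6.94, 7.40 and 7.08, also without overlap. Its change of -0.80 (standard error 0.17) did not pass, with an adjusted p of 0.016 without the replicate block and 0.0078 with it. All 3 probes for this gene, on chromosome 5, thus lay in the same direction with similar sizes.

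Ift88, a core IFT-B subunit whose loss in mice causes polycystic kidneys, gave the next smallest p in the complex. Probe ILMN_2949869 read 8.54, 9.0, 8.55 and 8.59 in controls and 8.11, 8.29, 8.05 and 7.71 in Tex19.1-/- animals. All 4 Tex19.1-/- values were below all control values, with animal 4 the lowest. The change of -0.63 (standard error 0.14, 1.55-fold lower) had an adjusted p of 0.024, and 0.0024 with the replicate block. The dimmer Ift88 probe, detected in 3 controls and 1 Tex19.1-/- animal, changed by -0.43 with overlapping genotypes.

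Ift52, another core subunit, showed the smallest change in the complex. Probe ILMN_2772389 read 9.13, 8.89, 8.97 and 9.11 in controls and 9.03, 9.10, 9.09 and 8.90 in Tex19.1-/- animals. The ranges coincided, and the change was 0.00 (standard error 0.10, 95% interval -0.21 to 0.22, adjusted p = 0.99), with 0.29 under median scaling. Its other probe changed by -0.21, or 0.07 under median scaling.

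The Rab-like GTPase Ift27, which links the train to BBSome-dependent export, had 2 kept probes. The brighter, ILMN_2679711, read 8.29, 8.1, 8.65 and 8.95 in controls and 7.80, 7.48, 8.14 and 7.93 in Tex19.1-/- animals. Only control 2 and Tex19.1-/- animal 3 overlapped. Each Tex19.1-/- value lay below that of the control with its number, as under any numbering that does not pair these 2 animals. The change was -0.66 (standard error 0.18), with an adjusted p of 0.074 without the replicate block and 0.0026 with it. The dimmer probe changed by -0.43 without overlap (adjusted p = 0.12).

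Ift81 and Ift74 form a pair that binds tubulin. The 3 Ift81 probes changed by -0.44, -0.44 and -0.36, with adjusted p of 0.072, 0.12 and 0.15. The 2 Ift74 probes detected in all arrays changed by -0.17 and -0.24, each with overlapping genotypes. The other kept Ift74 probe, detected in 2 controls and no Tex19.1-/- animal, has only a bound in the Tex19.1-/- testes, and its values overlapped too. Ift80, a peripheral subunit known from skeletal ciliopathies, changed by -0.43 without overlap (6.44 to 6.75 in controls, 5.99 to 6.24 in Tex19.1-/- animals, adjusted p = 0.038). The Rab-like Ift22 changed by -0.41 (adjusted p = 0.099), Traf3ip1, a microtubule-binding subunit, by -0.33 and Cluap1 by -0.25.

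The 3 probes of Ift20, a subunit also found at the Golgi and needed for sperm flagella in mice, did not move together. ILMN_2592093 changed by 0.14 and ILMN_2671767 by -0.06, both with overlap, while ILMN_2847618 changed by -0.32 without overlap, or by 0.04 under median scaling. None had an adjusted p under 0.05. Over the complex, 22 probes of 11 genes were kept, 2 probes of 1 gene fell at an adjusted p no higher than 0.01, 16 were lower at an unadjusted p under 0.05, and the median was -0.38.

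**Figure D2:**
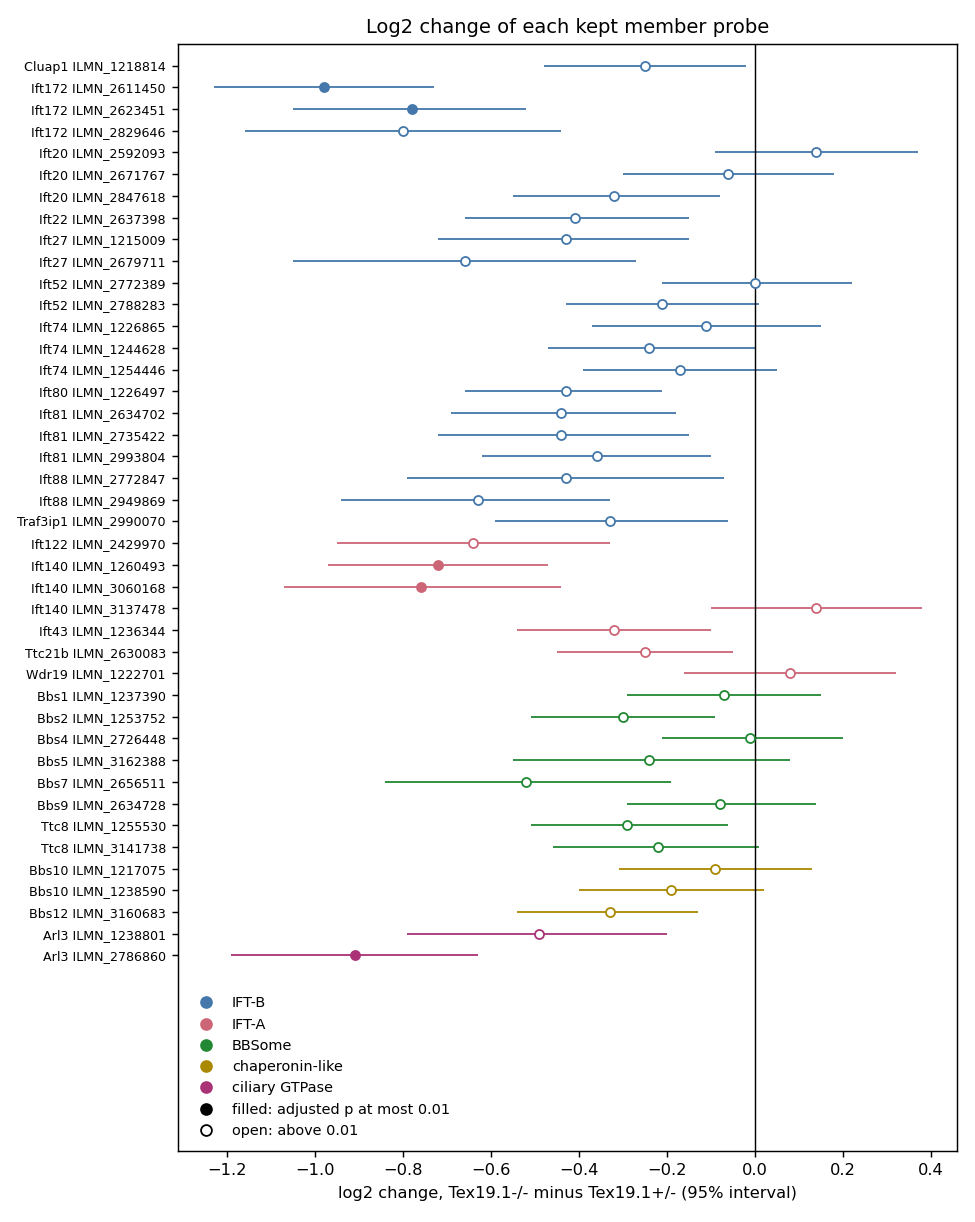
Log2 change, Tex19.1-/- minus Tex19.1+/- (horizontal axis), with its 95% interval from limma, for each of the 42 kept member probes (rows), coloured by role, with filled points for an adjusted p no higher than 0.01. The 5 filled points are 2 probes of Ift172, 2 of Ift140 and 1 of Arl3, and 4 probes lie at or above 0.

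IFT-A was led by Ift140, a core subunit for retrograde transport, on chromosome 17. Probe ILMN_1260493 read 7.47, 7.58, 7.24 and 7.51 in controls and 6.84, 6.65, 6.90 and 6.53 in Tex19.1-/- animals. There was no overlap, and the log2 change was -0.72 (standard error 0.12, 1.65-fold lower, adjusted p = 0.0030). Probe ILMN_3060168 read 8.64, 8.70, 8.97 and 9.39 against 8.16, 8.13, 8.22 and 8.16.

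This other Ift140 probe had a wide spread in the controls, with animal 4 highest, and a narrow one in the Tex19.1-/- animals. Its change was -0.76 (standard error 0.15, 1.69-fold lower, adjusted p = 0.0094). This value was near the threshold, and the call was lost in 10 of 19 other settings. The dim probe ILMN_3137478, detected in 3 controls and 4 Tex19.1-/- animals, changed by 0.14 (adjusted p = 0.64) and the last was not detected. The Ift140 probes therefore disagree in direction, and their positions in the transcript were not analysed here. The 250 bases before the Ift140 start, chr17:25015836-25016085 (plus strand), are printed because 2 of its probes fell, with the hexamer in capitals.
Ift140, upstream: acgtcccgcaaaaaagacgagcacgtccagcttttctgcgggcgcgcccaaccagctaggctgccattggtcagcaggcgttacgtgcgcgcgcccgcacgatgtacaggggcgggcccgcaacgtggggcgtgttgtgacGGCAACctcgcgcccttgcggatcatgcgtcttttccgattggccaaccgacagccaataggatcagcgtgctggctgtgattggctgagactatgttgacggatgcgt

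Ift122, another core IFT-A subunit, read 7.29, 7.87, 7.49 and 7.91 in controls and 6.88, 6.87, 7.19 and 7.06 in Tex19.1-/- animals. All Tex19.1-/- values were below the lowest control, and the change of -0.64 (standard error 0.14, 1.56-fold lower) had an adjusted p of 0.025, or 0.0078 with the replicate block. Ift43, a small peripheral subunit, read 9.56, 9.55, 9.5 and 9.61 in controls and 9.41, 9.11, 9.10 and 9.31 in Tex19.1-/- animals. The genotypes did not overlap although the change was only -0.32 (standard error 0.10, adjusted p = 0.13), and -0.03 under median scaling.

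Ttc21b and Wdr19 were at the limit of detection. Ttc21b, detected in 2 controls and no Tex19.1-/- animal, read 5.90 to 6.11 and 5.73 to 5.77 and has only a bound in the Tex19.1-/- testes, so no fold is given. Wdr19, detected in 1 Tex19.1-/- animal and no control, changed by 0.08, and its values overlapped. Over IFT-A, 7 probes of 5 genes were kept, 2 probes of 1 gene fell, 5 were lower at an unadjusted p under 0.05, and the median was -0.32. The 4 of these probes detected in all 8 arrays, for Ift140, Ift122 and Ift43, had a median of -0.68.

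**Figure D3:**
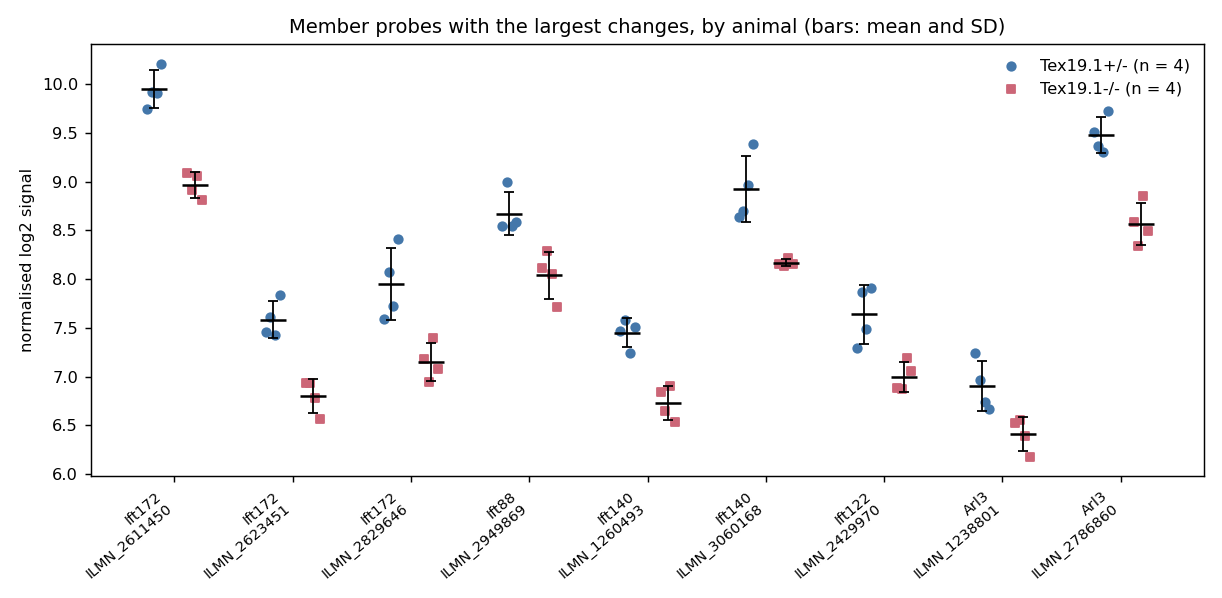
Normalised log2 signal (vertical axis) of each animal for the probes of Ift172, Ift88, Ift140, Ift122 and Arl3 detected in all 8 arrays (horizontal axis), with controls as blue circles, Tex19.1-/- as red squares, and the mean and SD of the 4 animals as black lines. At each of these probes all 4 Tex19.1-/- animals lie below all 4 controls. The probes are a choice from the 42 kept, of which 20 had no overlap. Ift27 probe ILMN_2679711, with a log2 change of -0.66 and overlapping genotypes, is not shown.

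None of the 7 BBSome subunits passed the test. The smallest p was that of Bbs7, part of the BBSome core, whose detected probe read 8.85, 8.97, 9.03 and 9.46 in controls and 8.67, 8.36, 8.86 and 8.36 in Tex19.1-/- animals. Animal 3 of the Tex19.1-/- group reached the lowest control, and the change of -0.52 (standard error 0.15, 1.43-fold lower) had an adjusted p of 0.093. Bbs7 is also a member with the full X-box pattern, as are Bbs1 (-0.07) and Bbs4 (-0.01).

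Bbs2, which pairs with Bbs7 in the core, read 6.53, 6.62, 6.55 and 6.36 in controls and 6.31, 6.20, 6.14 and 6.23 in Tex19.1-/- animals. These did not overlap, with a change of -0.30 (standard error 0.098, adjusted p = 0.15). Bbs4, a subunit that links the BBSome to pericentriolar proteins, read 7.60, 7.60, 7.53 and 7.54 in controls and 7.71, 7.59, 7.48 and 7.47 in Tex19.1-/- animals. Its change was -0.01 (standard error 0.095, 95% interval -0.21 to 0.20, adjusted p = 0.99), and 0.21 under median scaling.

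The other BBSome subunits lay between these. Both Ttc8 probes, for the subunit also called BBS8, had no overlap between genotypes, with changes of -0.29 and -0.22 and adjusted p of 0.22 and 0.38. At the latter probe the lowest control and the highest Tex19.1-/- animal both rounded to 6.86. Bbs5, a subunit that binds phosphoinositides, changed by -0.24 and Bbs9 by -0.08, each with overlap. Bbs1, which binds cargo and Arl6, was detected in 2 controls and no Tex19.1-/- animal, so it has only a bound there, and its values of 5.85 to 6.16 and 5.79 to 6.00 overlapped. Over the BBSome, 8 probes of 7 genes were kept, 0 were called, 3 were lower at an unadjusted p under 0.05, and the median was -0.23. Whether the BBSome and IFT probes differed in their change was not tested.

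Bbs10 and Bbs12 encode chaperonin-like proteins that help the BBSome to assemble. The Bbs10 probe ILMN_1238590 read 7.02, 7.02, 6.87 and 7.10 in controls and 6.94, 6.74, 6.84 and 6.74 in Tex19.1-/- animals. With a change of -0.19 (standard error 0.098, adjusted p = 0.42) the genotypes overlapped. ILMN_1217075 read 6.75, 6.79, 6.65 and 6.57 against 6.67, 6.58, 6.72 and 6.41, with a change of -0.09 (standard error 0.10, adjusted p = 0.76), or 0.04 under median scaling.

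Bbs12 was close to background. Its kept probe read 6.01, 6.00, 5.89 and 6.02 in controls, 2 of them detected, and 5.53, 5.68, 5.63 and 5.74 in Tex19.1-/- animals, none of them detected. The values did not overlap and the fitted change was -0.33 (standard error 0.094, adjusted p = 0.082). The Tex19.1-/- level is only a bound, so no fold is given, and the other 2 probes were not detected.

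Arl3, the GTPase that releases lipid-modified proteins from their carriers inside the cilium, was the only member of the Arl family in the set with a probe in the annotation. Probe ILMN_2786860 read 9.51, 9.37, 9.30 and 9.72 in controls and 8.59, 8.34, 8.85 and 8.49 in Tex19.1-/- animals. The groups were well apart, and the log2 change was -0.91 (standard error 0.13, 95% interval -1.19 to -0.63, 1.88-fold lower, adjusted p = 0.0013). The dimmer probe ILMN_1238801 read 7.24, 6.97, 6.74 and 6.67 against 6.52, 6.56, 6.39 and 6.18.

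The dimmer Arl3 probe likewise had no overlap, and its change of -0.49 (standard error 0.14, 1.41-fold lower, adjusted p = 0.077, and 0.011 with the replicate block) did not pass. The 2 probes thus had the same direction with sizes that differed, a difference that was not tested. The 250 bases before the Arl3 start on chromosome 19, chr19:46573183-46573432 (minus strand), are printed because its probe fell by the most after the brightest Ift172 probe. They hold neither the full X-box pattern nor the hexamer GTTGCC on either strand, so no letter is in capitals.
Arl3, upstream: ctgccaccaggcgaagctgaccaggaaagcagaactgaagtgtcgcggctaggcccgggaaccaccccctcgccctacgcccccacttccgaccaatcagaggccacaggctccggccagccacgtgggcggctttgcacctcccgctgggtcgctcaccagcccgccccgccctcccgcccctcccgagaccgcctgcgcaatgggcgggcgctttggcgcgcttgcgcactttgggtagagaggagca

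Averaged over the 32 member probes detected in all 8 arrays, the log2 level per animal was 7.92, 7.96, 7.86 and 7.99 in controls 1 to 4 and 7.60, 7.51, 7.56 and 7.48 in Tex19.1-/- animals 1 to 4. The lowest control was above the highest Tex19.1-/- animal. Among the Tex19.1-/- animals, animal 4 was the lowest at 12 of these probes and animal 1 the highest at 12, and without animal 4 the number of called member probes was 2 and without animal 2 it was 3.

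Other ciliary genes were taken from 5 lists of 60 genes, with 1 probe a gene (the brightest kept). At the same threshold 5 of the 47 kept genes fell and 0 rose, beside 1.98% of all 10902 genes lower and 0.11% higher, and the median was -0.10. By the same 1-probe rule 3 of the 26 members fell. Without Tex19.1-/- animal 2 or 4 the count of 5 was 2, and without control 3 it was 3. Dynlrb2 and Rfx2 passed whichever animal was left out, whereas Dync2i1, Dynlt2b and Rfx4 did not.

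The dynein that returns IFT trains held 3 of these genes. Dynlrb2, a dynein light chain, read 8.28, 8.33, 8.07 and 8.95 in controls and 6.74, 6.18, 6.94 and 6.61 in Tex19.1-/- animals, far apart (log2 change -1.79, standard error 0.19, adjusted p = 2.4e-04). Its paralogue Dynlrb1 lay at 9.51 to 9.99 in controls and 9.81 to 10.24 in Tex19.1-/- animals (0.31, adjusted p = 0.28). The light chain Dynlt2b changed by -0.67 (adjusted p = 0.0047) and the intermediate chain Dync2i1 by -0.63 (adjusted p = 0.0048). The heavy chain Dync2h1 changed by -0.60 without overlap but did not pass (adjusted p = 0.024). Of the 16 other IFT particle and motor genes 13 were kept, with a median of -0.42.

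The remaining structural lists gave no call in limma without the replicate block. At an unadjusted p under 0.05 they had 0, 1 and 5 genes lower and 0 higher in the order given here. Of all probes 7.93% were lower and 5.87% higher at that threshold, and the share over genes was not computed. Among 8 kept BBSome-linked genes the median was 0.11, and the smallest p were those of Ccdc28b, a modifier of BBS (0.19, adjusted p = 0.39), and the planar polarity effector Wdpcp (-0.22, adjusted p = 0.40). The 8 kept genes for lipidated cargo and small GTPases had a median of -0.01. Arl2bp, an effector of Arl2 and Arl3, changed by -0.49 (adjusted p = 0.087) and Unc119, a carrier that Arl3 unloads, by 0.19 (adjusted p = 0.46). The 15 kept genes of the transition zone, the gate at the ciliary base, had a median of -0.19, led by Mks1 (-0.49, adjusted p = 0.020) and B9d1 (-0.73, adjusted p = 0.022). With the block B9d1 was called (adjusted p = 0.0045), as was the dynein intermediate chain Dync2i2 (-0.55, adjusted p = 0.028 without the block and 0.0074 with it), which brought the other ciliary genes called lower from 5 to 7.

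Of 7 ciliary transcription factor genes, 3 were kept and 2 fell. Rfx2, an RFX factor needed for spermiogenesis in mice, read 9.57, 9.73, 9.46 and 9.76 in controls and 8.57, 7.93, 8.42 and 8.07 in Tex19.1-/- animals. The groups were wide apart (log2 change -1.39, standard error 0.14, adjusted p = 1.7e-04), and Rfx4 changed by -0.87 (adjusted p = 0.0031). Rfx1 lay at 8.56 to 8.92 in controls and 8.75 to 9.25 in Tex19.1-/- animals (0.31, adjusted p = 0.29), while Rfx3, Foxj1, Mcidas and Gmnc were not detected in any array.

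**Figure D4:**
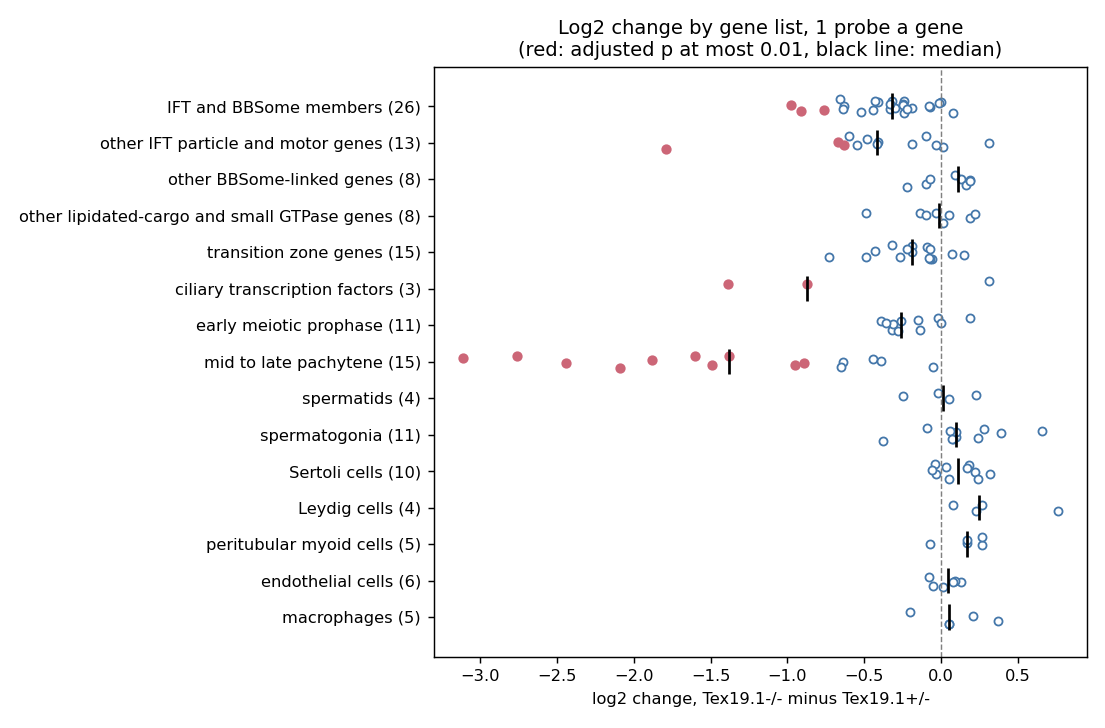
Log2 change, Tex19.1-/- minus Tex19.1+/- (horizontal axis), of each kept gene with 1 probe a gene, by list (rows, with the number of kept genes), with red for an adjusted p no higher than 0.01 and a black line at the list's median. The medians are -0.32 for the members, -0.42 for other IFT particle and motor genes, -1.38 for mid to late pachytene genes and 0.11 for Sertoli cell genes.

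Most mid to late pachytene markers were lower in the Tex19.1-/- testes too, and early prophase markers less so. Of 15 kept mid to late pachytene genes 10 fell and 0 rose, beside 1.98% of all genes lower and 0.11% higher. Their median was -1.38, and their summed linear level was 19200 to 28100 in controls and 7010 to 11100 in Tex19.1-/- animals. Adam3, Pgk2 and Ccna1 were detected in no Tex19.1-/- array and so passed the filter through the controls. Adam3 was among the called genes, and its Tex19.1-/- level is only a bound. The 2 with the smallest p were Tcte3 (-1.88, adjusted p = 1.5e-04) and Piwil1, a piRNA-binding protein of pachytene spermatocytes (-2.76, adjusted p = 1.5e-04). Tcte3, Spag6l and Nme5, all called, are also genes of the sperm flagellum, so this list is not separate from ciliary genes. The 11 kept early prophase genes had 0 calls, with 5 lower and 0 higher at an unadjusted p under 0.05, beside 7.93% and 5.87% of all probes. Their median was -0.26, with summed levels of 5310 to 6180 in controls and 4210 to 5080 in Tex19.1-/- animals.

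No somatic or spermatogonial marker was called in limma without the replicate block. With the block the spermatogonial marker Ccnd2, a cyclin, was called higher (log2 change 0.66, adjusted p = 0.26 without the block and 0.0027 with it), although its values overlapped, at 6.81 to 8.03 in controls and 7.54 to 8.54 in Tex19.1-/- animals. The medians were 0.10 for 11 spermatogonial genes, 0.11 for 10 Sertoli cell genes, 0.25 for 4 Leydig cell genes, 0.17 for 5 peritubular myoid genes, 0.04 for 6 endothelial genes and 0.05 for 5 macrophage genes. At an unadjusted p under 0.05 these lists had 1 spermatogonial gene lower and 2 higher, 0 endothelial genes, and 1 gene higher in each of the other 4 lists. Beside these stand 7.93% of all probes lower and 5.87% higher. The summed Sertoli cell level was 33500 to 35500 in controls and 35100 to 38600 in Tex19.1-/- animals. Such linear sums follow the brightest probes most, here those of Aard and Cldn11, with control means of 14.0 and 13.42 (log2). Spermatid genes, at or near background in both genotypes, had 0 calls among the 4 kept, with 1 lower at an unadjusted p under 0.05. The part of the spermatocyte markers in the changes of the IFT and BBSome genes was not tested.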

How the data were processed

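The deposited intensity of each probe is a linear signal that the authors had background-subtracted in BeadStudio. The authors also deposited a detection p-value per probe and array, and a log2 table made by log transformation and quantile normalisation in lumi (median 5.73). Versions were not given in the sources used here. The arrays hold no counts, and the number of arrays limits the precision.

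Signals were shifted to a minimum of 1 in each array, log2-transformed and quantile-normalised, which differed from the authors' log2 table by at most 0.0144. A probe was kept where any array had a detection p under 0.01. The genotypes were fitted by lmFit and eBayes (limma 3.58.1, R 4.3.3), with Benjamini-Hochberg adjustment over 19089 kept probes and calls at an adjusted p no higher than 0.01. The platform annotation gave the symbols, which were updated from RefSeq genes (GRCm38.p6). Of the kept probes 16257 had 1 symbol, 7 several and 2825 none.

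Every member was named, with full values for called probes and, within each role, for the 2 genes with the smallest p and the probe with the smallest change. The values of Ift27, the remaining Ift172 probe, Dynlrb1, Dync2h1, Dync2i2, Ccnd2 and Rfx1 were added after they had been seen. Of the other ciliary lists the called genes and the 2 with the smallest p were named. The members and lists were chosen with earlier results of these data known. Labels give all 4 controls as Tex19.1+/-, while the methods describe wild-type and heterozygous controls.

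Both genotypes use replicate numbers 1 to 4. After subtraction of the genotype means, same-numbered animals correlated at 0.21, 0.52, 0.10 and 0.23, each above 0.1 (0.1033 for number 3). On that ground the replicate block treats them as pairs, from the data alone, since the labels do not say what the numbers mark. Numbers 3 and 4 had a higher correlation with a differently numbered animal (0.23 and 0.45). The pairing is therefore uncertain, and the main fit does not use it. Tested on simulated data for this comparison (19089 probes), the fit called 29.7% of probes changed 1.5 fold and 79% of those changed 2 fold. Alternatives covered background, normalisation, detection filter, variance model, replicate block and leaving out each animal.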

Additional observations from a re-analysis of the deposited data

Results flagged for a closer look

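In 4 of 84 groups of 4 animals tested, 1 animal stood apart from the other 3 by Dixon's ratio, and chance flags about 1 in 20 groups. At Ift52 probe ILMN_2788283, Tex19.1+/- animal 4 was lowest at 8.89, with the next at 9.10 (ratio 0.86). At Ift81 probe ILMN_2634702 the same animal was lowest at 7.90, with the next at 8.27 (0.912). At Ift88 probe ILMN_2949869, Tex19.1+/- animal 2 was highest at 9.0, with the next at 8.59 (0.886). At Ift74 probe ILMN_1226865, not detected in any Tex19.1-/- array, Tex19.1-/- animal 3 was lowest at 5.67, with the next at 5.87 (0.95).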

How the results depend on the processing

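Over the named member probes, 266 of 303 values under other settings kept their direction and side of the threshold, 22 lost the call, 3 gained it and 12 changed sign. The number of member probes called lower (5) was 0 with signals under 1 set to 1, 0 with median scaling, 9 with the replicate block, and 2 to 6 when 1 animal was left out (2 without Tex19.1-/- animal 4, 3 without animal 2). Other ciliary genes called lower (5) were 0 with signals under 1 set to 1, 0 with median scaling, and 2 to 4 with 1 animal left out. Mid to late pachytene genes called lower (10) were 1 with signals under 1 set to 1, 0 with median scaling and 6 with a robust fit that includes an intensity trend. Only 1 of all probes was called lower with median scaling and 20 with signals under 1 set to 1, so that few calls remained for any list. The replicate block left the other counts within 1.5 times their value (7 other ciliary genes and 10 pachytene genes lower), and it changed the calls of Dync2i2, B9d1 and Ccnd2 among the listed genes outside the set. The median log2 change of kept member probes (-0.32) was -0.53 with signals under 1 set to 1 and -0.17 with median scaling, which moved the median of all probes to 0.14, so that relative to it the members' median was -0.31. The sign turned for Bbs10 ILMN_1217075 (0.04) and Bbs4 (0.21) with median scaling, and for Ift52 ILMN_2772389 with cyclic loess (-0.04) and array weights (-0.01). With 1 animal left out Bbs4 ranged from -0.06 to 0.02 and Ift52 from -0.04 to 0.05. Among called probes, Ift172 ILMN_2611450 and Arl3 ILMN_2786860 lost the call only with signals under 1 set to 1 (adjusted p 0.027 and 0.041) and median scaling (0.6 for both), Ift172 ILMN_2623451 also without Tex19.1-/- animal 4 (0.013), and Ift140 ILMN_1260493 also without control 1 (0.011), Tex19.1-/- animal 2 (0.012) or animal 4 (0.016). Apart from what these settings do to the values, the cause was not tested. Signals close to background limit Ttc21b, Wdr19, Bbs1, Bbs12 and 1 probe of Ift74.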
